A study of Mus musculus with 18 samples.

Results

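The RNA levels of 10 glutathione S-transferase genes, Gsta2, Gsta3, Gsta4, Gstm1, Gstm2, Gstm5, Gstp1, Gstt1, Gsto1 and Mgst1, were followed in RNA-seq data of cultured mouse testes. They were chosen by symbol, as the cytosolic alpha, mu, pi, theta and omega classes and the membrane-bound form that can meet an alkylating drug such as busulfan, and 10 genes of the 22657 in the table carried these symbols. All 10 passed the filter for low values, which 15790 genes passed. The samples were 18 cultures in 6 groups of 3, all of testes of ICR mice kept for 48 h in DMEM/F12 medium with serum. A0, A10 and A50 came from mice without busulfan and were cultured with alginate oligosaccharides (AOS, short sugar chains cut from the alginate of brown algae) at 0, 10 or 50 μg/mL. B0, BA10 and BA50 received the same AOS concentrations and came from mice given busulfan once at 40 μg per g body weight at 3 weeks of age, with the testes taken 2 weeks later. Animals without busulfan were age-matched, and several testes were cultured per treatment. Whether a sample held a single testis or a pool is not stated in the sources used here. AOS amounts are taken as concentrations in the medium, as labels and methods have them, although the series' design text words them as doses by body weight.

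Busulfan carries a pair of leaving groups through which it alkylates DNA, and its main route of removal is joining to the thiol of glutathione, a tripeptide. In liver, transferases of the alpha class do most of this work, with mu and pi class enzymes contributing less, and the conjugate is pumped out of the cell or trimmed to a mercapturate. In the testis the same family also clears lipid peroxidation products. The values here are RNA levels, and neither enzyme activity nor busulfan itself was measured in these samples. Because the cultures received busulfan in the animal and not in the dish, the comparisons concern testes left after the drug had acted for 2 weeks.

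Some of the 10 genes have close copies, which limits what a count of RNA can separate. Of the 50-base windows of the principal Gstp1 transcript, 62.3% occurred exactly in transcripts of another gene, mostly its neighbour Gstp2, and for Gsta2 the share was 64.2%, mostly with Gsta1 and the gene models Gm10639 and Gm3776. For Gstm1 the share was 23.2%, for Gstm5 14.4% and for Gstm2 9.36%, while Gsta3, Gsta4, Gstt1, Gsto1 and Mgst1 shared no window. The first 60 coding bases of Gstp1 and Gstp2 are shown because the largest busulfan difference below belongs to this pair. Capitals mark the 6 bases that differ there, of 12 in the 630 coding bases, and the sequences are those of the GRCm38 transcript annotation.
Gstp1: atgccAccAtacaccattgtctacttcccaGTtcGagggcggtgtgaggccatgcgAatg
Gstp2: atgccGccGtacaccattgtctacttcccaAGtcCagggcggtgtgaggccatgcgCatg
The coding sequences of Gsta2 and Gsta1 were 97.6% identical, and the first 60 bases, shown once for both, did not differ.
Gsta2: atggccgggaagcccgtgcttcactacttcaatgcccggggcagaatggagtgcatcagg
Copies were listed far below the genes themselves, Gstp2 at 4.39 to 11.7 FPKM and Gsta1 at 1.06 to 10.4 FPKM over the 18 samples (fragments per kilobase per mega-fragment mapped, a level scaled for gene length and library size). The sources name an aligner set to report repeat hits as well as RSEM, which divides shared reads by estimation, and which of these made the table is unclear, so levels and changes of Gstp1 and Gsta2 are uncertain to that extent.

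Upstream sequence was read for the genes because many transferases are induced through the antioxidant response element, bound by the factor NRF2, or through the similar site of AP-1. RefSeq start sites on GRCm38.p6 were in hand for 9 of the 10 genes, all but Gsta4, and gave 11 windows, since Gstm1 and Mgst1 have a pair each. The 9-base core TGACNNNGC, searched on both strands in the 250 bases before the start, occurred in 3 of these 11 windows, and in 10.2% of all 32851 windows of that length. The 7-base core TGANTCA, which reads the same on both strands and was added after the windows had been read, occurred in 2 of the 11 and in 6.75% of all windows. The 4 windows that hold either core are printed 5′ to 3′ with the matches in capitals, Gstp1 from chr19:4037913-4038162 (minus strand), Mgst1 from chr6:138140277-138140526 (plus strand), Gsta3 from chr1:21240335-21240584 (plus strand) and Gstm5 from chr3:107895604-107895853 (plus strand).
Gstp1: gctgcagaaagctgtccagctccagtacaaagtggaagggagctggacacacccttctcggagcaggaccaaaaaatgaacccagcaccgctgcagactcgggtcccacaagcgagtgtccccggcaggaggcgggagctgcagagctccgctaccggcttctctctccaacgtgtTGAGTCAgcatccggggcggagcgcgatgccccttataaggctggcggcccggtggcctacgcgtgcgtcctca
Mgst1: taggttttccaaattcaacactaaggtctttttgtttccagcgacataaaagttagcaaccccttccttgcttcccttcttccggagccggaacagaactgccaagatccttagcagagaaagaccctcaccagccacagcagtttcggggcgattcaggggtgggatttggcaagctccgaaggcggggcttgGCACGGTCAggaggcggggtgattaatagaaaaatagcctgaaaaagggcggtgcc
Gsta3: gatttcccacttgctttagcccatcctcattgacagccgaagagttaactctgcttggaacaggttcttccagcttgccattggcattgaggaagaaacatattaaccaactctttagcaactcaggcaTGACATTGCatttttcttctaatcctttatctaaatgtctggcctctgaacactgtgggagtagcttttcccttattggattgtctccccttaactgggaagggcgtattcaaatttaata
Gstm5: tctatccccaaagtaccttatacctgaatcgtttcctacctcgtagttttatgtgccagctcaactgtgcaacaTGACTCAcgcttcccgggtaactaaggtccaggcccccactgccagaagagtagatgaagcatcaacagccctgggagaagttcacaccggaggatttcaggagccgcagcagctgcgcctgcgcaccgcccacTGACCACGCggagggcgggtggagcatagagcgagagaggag
Gstm5 holds both cores, and Gsta2, Gstm1, Gstm2, Gstt1 and Gsto1 hold neither in the windows searched. Matches are a description of these letters and were not tested for binding.

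Levels across the family spanned more than 2 orders of magnitude. In the 9 samples without busulfan, the mean level was 755 FPKM for Gstm5, 609.9 for Gstm1, 485 for Gstm2, 449 for Gstp1, 357 for Mgst1, 189 for Gsta4, 124 for Gsta3, 33.5 for Gsta2, 25.7 for Gsto1 and 6.72 for Gstt1. Neighbours in this order overlapped in their ranges over the 9 samples except Gsta3 above Gsta2 and Gsto1 above Gstt1. In the 9 samples with busulfan, Gstp1 came first with a mean of 779.9 FPKM, ahead of Gstm1 at 767 and Gstm5 at 683, and these neighbours again overlapped. Gstp1 stood at rank 4 without and rank 1 with busulfan, while Gsta2, Gsto1 and Gstt1 kept the lowest places. The 10 genes summed to 2477 to 3369 FPKM in samples without busulfan and to 3099 to 4658 FPKM with it. Markers of liver, the organ known for busulfan conjugation, were near 0, their sum lying between 0.06 and 0.20 FPKM in the 18 samples.

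**Figure D1:**
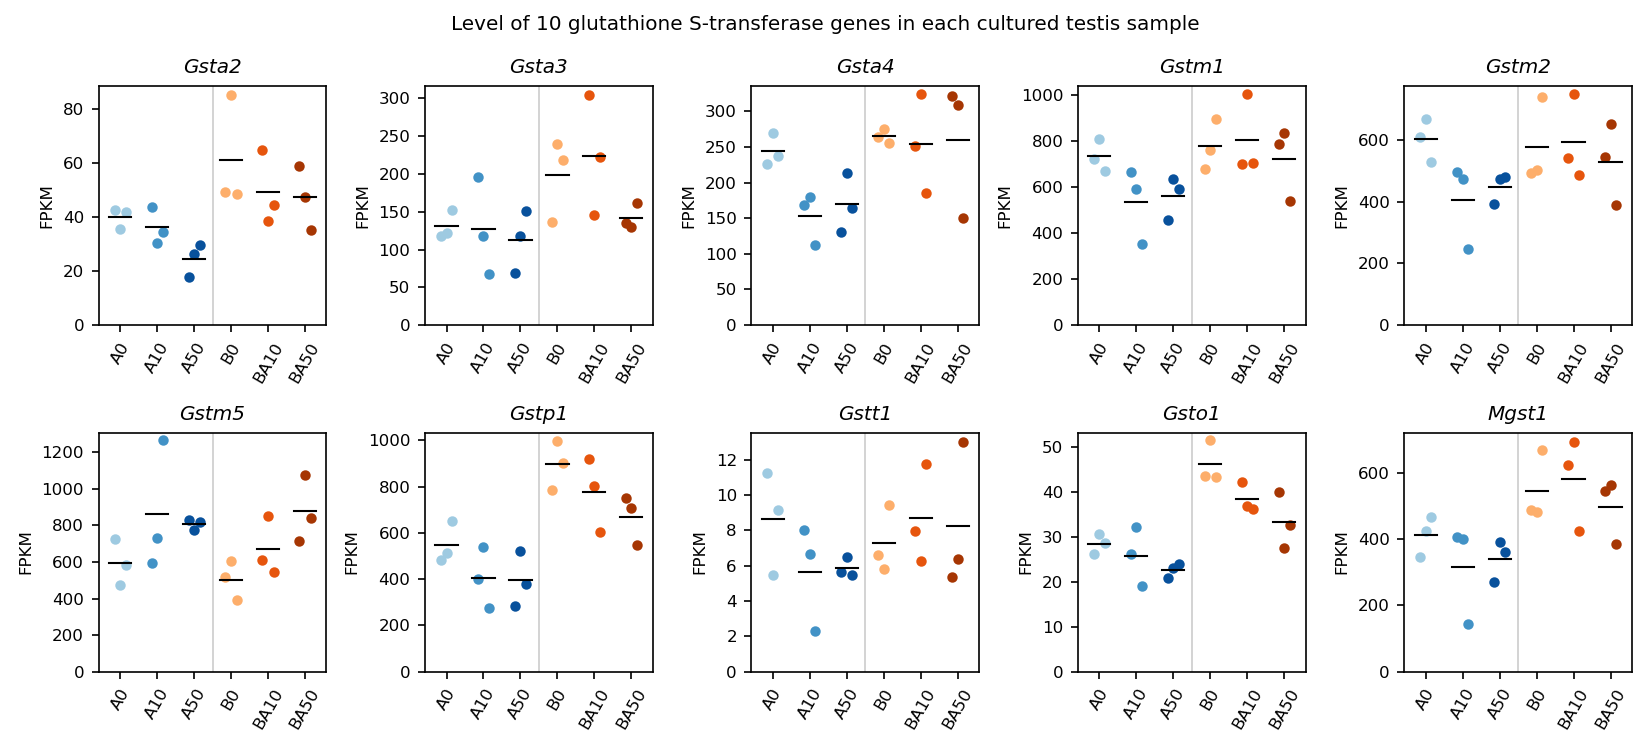
Level of each of the 10 genes in FPKM (vertical axes, each starting at 0) in the 18 cultured testis samples, by group on the horizontal axes. Points are samples and black bars are means of 3. Gstp1 and Gsto1 show every busulfan sample above all samples without busulfan at the same AOS concentration, whereas Gstm5 and Gstt1 show intermixed points.

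The first question was whether the family differed between testes with and without prior busulfan, taken over the 3 AOS concentrations together. Gstp1, Mgst1, Gsta2, Gsta3, Gsto1 and Gsta4 rose, by 0.47 to 0.82 on the log2(FPKM + 1) scale, and none of the 10 fell. Of all genes tested, 13.3% were called higher and 24.8% lower in this comparison (limma, Benjamini-Hochberg adjusted p under 0.05). A log2 change above 0 was seen in 9 of the 10 genes, with a median of 0.53, and in 51.5% of all genes tested, whose median was 0.01. At stricter limits, an adjusted p of at most 0.001 and a log2 change of at least 1, none of the 10 was called, against 0.0887% of all genes called higher. In bulk tissue, fewer cells of a type and less RNA per cell cannot be told apart. Spermatocyte markers fell with busulfan in 11 of 12 genes, their sum going from 375 to 542 FPKM without busulfan to 50.9 to 107 FPKM with it. Spermatogonium markers fell in 7 of 11 genes and rose in 1, with sums of 155 to 253 FPKM without and 77.2 to 135 FPKM with busulfan. All 12 spermatid markers had a log2 change above 0 (median 0.39), and 1 was called higher. How much of the transferase differences follows from these shifts was not tested.

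Gstp1 (chr19:4035411-4037912, GRCm38), the pi class enzyme, gave the largest of these differences. Without busulfan its level was 482, 513 and 649 FPKM in A0, 399.9, 537 and 277 in A10, and 283, 521 and 381 in A50. With busulfan it was 787, 997 and 903 FPKM in B0, 919.8, 803 and 605 in BA10, and 749, 707 and 548 in BA50. Each of the 9 busulfan samples lay above the highest sample of its own AOS concentration, and 7 of them above every sample without busulfan. The mean went from 449 ± 124 to 779.9 ± 147 FPKM (SD, n = 9 each). On the log2 scale the difference was 0.82 ± 0.15 (SE), with a limma adjusted p of 0.000409, and the exact permutation test within AOS concentrations, two-sided over 8000 arrangements, gave 0.00025, the smallest p it allows. Gstp2, the near copy, had a difference of 0.21 ± 0.11 (adjusted p = 0.137, limma), and Gstp3, a less similar pi class gene at a mean of 356 FPKM without busulfan, rose by 0.50 (adjusted p = 0.0278).

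Gsto1 (chr19:47854973-47864790), the omega class enzyme, which reduces mixed disulfides and dehydroascorbate more than it conjugates, changed with the least spread. Its level without busulfan was 26.2, 30.8 and 28.6 FPKM in A0, 26.2, 32.1 and 19.1 in A10, and 20.9, 23.1 and 24.0 in A50. In the busulfan cultures it was 43.7, 51.7 and 43.5 FPKM in B0, 42.3, 36.9 and 36.4 in BA10, and 40.1, 27.5 and 32.8 in BA50. Again each of the 9 busulfan samples exceeded all samples of its own AOS concentration, and 8 exceeded every sample without the drug. Means were 25.7 ± 4.37 and 39.4 ± 7.03 FPKM (SD, n = 9 each). The log2 difference of 0.60 ± 0.09 (SE) had a limma adjusted p of 0.000129 and the same exact permutation p of 0.00025, the smallest possible. Its neighbour Gsto2 fell by 0.46 (limma adjusted p = 0.0229).

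The alpha class genes, the main busulfan conjugators of liver, were listed at intermediate levels. Gsta2 (chr9:78331018-78347192) was at 42.5, 35.6 and 41.9 FPKM in A0, 43.5, 30.5 and 34.3 in A10, and 17.6, 26.1 and 29.4 in A50. With busulfan Gsta2 was at 49.2, 84.9 and 48.5 FPKM in B0, 64.7, 38.5 and 44.4 in BA10, and 58.9, 47.5 and 35.2 in BA50. Of the 9 busulfan samples, 8 lay above all samples of their own AOS concentration, the exception being a BA10 sample. The log2 difference was 0.63 ± 0.15 (SE, adjusted p = 0.00397, limma), with an exact permutation p of 0.0005. Gsta1, which shares sequence with it, rose by 1.05 ± 0.27 (adjusted p = 0.0074, limma), from a level of 1.06 to 4.45 FPKM without busulfan.

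Gsta3 (chr1:21240565-21265575), which in mice detoxifies the epoxide of aflatoxin, scattered widely within groups. Its level was 118, 122 and 152 FPKM in A0, 196, 118 and 67.5 in A10, and 68.5, 118 and 151 in A50. Busulfan samples held 136, 240.0 and 219 FPKM in B0, 305, 146 and 222 in BA10, and 136, 130.3 and 161 in BA50. The groups overlapped at each AOS concentration, and the log2 difference was 0.62 ± 0.21 (adjusted p = 0.0337, limma). Leaving out any of 9 single samples brought Gsta3 past the 0.05 limit, to an adjusted p of up to 0.0722. Gsta4 (chr9:78191966-78209349), known for conjugating the lipid peroxidation product 4-hydroxynonenal, ranged from 112 to 269.6 FPKM without busulfan (median 180.2) and from 151 to 325 FPKM with it (median 264). Gsta4 had a log2 difference of 0.47 ± 0.16 (adjusted p = 0.0345, limma), a call lost on leaving out any of 12 single samples, with an adjusted p of up to 0.0737.

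Mgst1 (chr6:138140527-138156755), the form anchored in the membranes of the endoplasmic reticulum and mitochondria, was among the abundant transferases. It was listed at 345, 424 and 468 FPKM in A0, 406, 401 and 145 in A10, and 271, 391 and 361 in A50. After busulfan the level was 488, 482 and 669.5 FPKM in B0, 625, 695 and 425 in BA10, and 544, 565 and 387 in BA50. The third A10 sample was the lowest of all by a wide margin, and 8 of the 9 busulfan samples lay above all samples of their AOS concentration, the exception being the third BA50 sample. Mgst1 rose by 0.64 ± 0.19 (SE, adjusted p = 0.0156, limma; exact permutation p = 0.0005). Leaving out each sample in turn gave log2 differences of 0.48 to 0.73, all with an adjusted p under 0.05.

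The mu class behaved less evenly, and none of its 3 genes passed the test. Gstm1 (chr3:108012250-108017973), a broad conjugating enzyme, ranged from 350.4 to 808 FPKM without busulfan (median 634) and from 539 to 1006 FPKM with it (median 759.5). Its log2 difference of 0.35, with a 95% interval of 0.05 to 0.64, had an adjusted p of 0.0598 (limma). Gstm2 (chr3:107981702-107986420) ranged from 248 to 667 FPKM without and from 391 to 749.5 FPKM with busulfan, a difference of 0.24 (interval -0.09 to 0.57, adjusted p = 0.23, limma). Taken over all AOS concentrations, samples with and without busulfan overlapped for both genes, as they did for every member. Of the 9 busulfan samples, 6 for Gstm1 and 5 for Gstm2 lay above all samples of their own AOS concentration. The same count was 6 for Gsta4 and 5 for Gsta3. Gstm1 did not overlap in BA10 against A10, whereas Gstm2 did. Exact permutation p was 0.0235 for Gstm1 and 0.178 for Gstm2, beside 0.02 for Gsta4 and 0.0135 for Gsta3.

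Gstm5 (chr3:107895854-107898685), the mouse counterpart of a mu class gene known from testis and sperm, was the single member with a value below 0. Its level was 725, 471 and 582 FPKM in A0, 592, 731 and 1265 in A10, and 832, 775 and 818 in A50. With busulfan it was 516, 603 and 391 FPKM in B0, 609, 851 and 547 in BA10, and 715, 1079 and 842 in BA50. The log2 difference was -0.15 (95% interval -0.48 to 0.18, adjusted p = 0.459, limma). Gstt1 (chr10:75783813-75798584), of the theta class that handles small halogenated compounds, ranged from 2.30 to 11.2 FPKM without and from 5.37 to 13.0 FPKM with busulfan, with a difference of 0.26 (interval -0.20 to 0.72, adjusted p = 0.357, limma). At this level the scale of log2(FPKM + 1) slightly understates the change of Gstt1.

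At each AOS concentration taken alone, with 3 samples against 3, fewer genes passed. In B0 against A0 only Gsto1 was called, by 0.68 (adjusted p = 0.0106, limma), where 1.47% of all genes were called higher. Samples did not overlap and were higher in B0 for 4 members (Gsta2, Gstp1, Gsto1, Mgst1), as for 10.5% of all genes. In BA10 against A10, Gstp1 (0.97, adjusted p = 0.0149) and Gsto1 (0.59, adjusted p = 0.0204) were called by limma, against 3.74% of all genes, and 5 members did not overlap, against 11% of all genes. In BA50 against A50, Gsta2 (0.92, adjusted p = 0.0198), Gstp1 (0.79, adjusted p = 0.0408) and Gsto1 (0.53, adjusted p = 0.0322) were called by limma, against 3.7%, and the same 3 were the members that did not overlap, against 16% of all genes. An exact permutation test of 3 against 3 cannot go below p = 0.1, so these calls rest on the spread shared over all groups. The calls of BA10 against A10 were lost without the third A10 sample or without the first BA10 sample (0 members called in each case), where calls of higher genes over the whole table also went from 591 to 173 and 206. That of B0 against A0 was lost without the first A0 sample (232 to 93 over all genes), and those of BA50 against A50 without the first A50 or the first BA50 sample (584 to 258 and 379). Without the first A10 sample, 5 members were called in BA10 against A10 (1285 over all genes), and without the third A10 sample Gstp1 joined Gsto1 in B0 against A0 (364 over all genes).

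**Figure D2:**
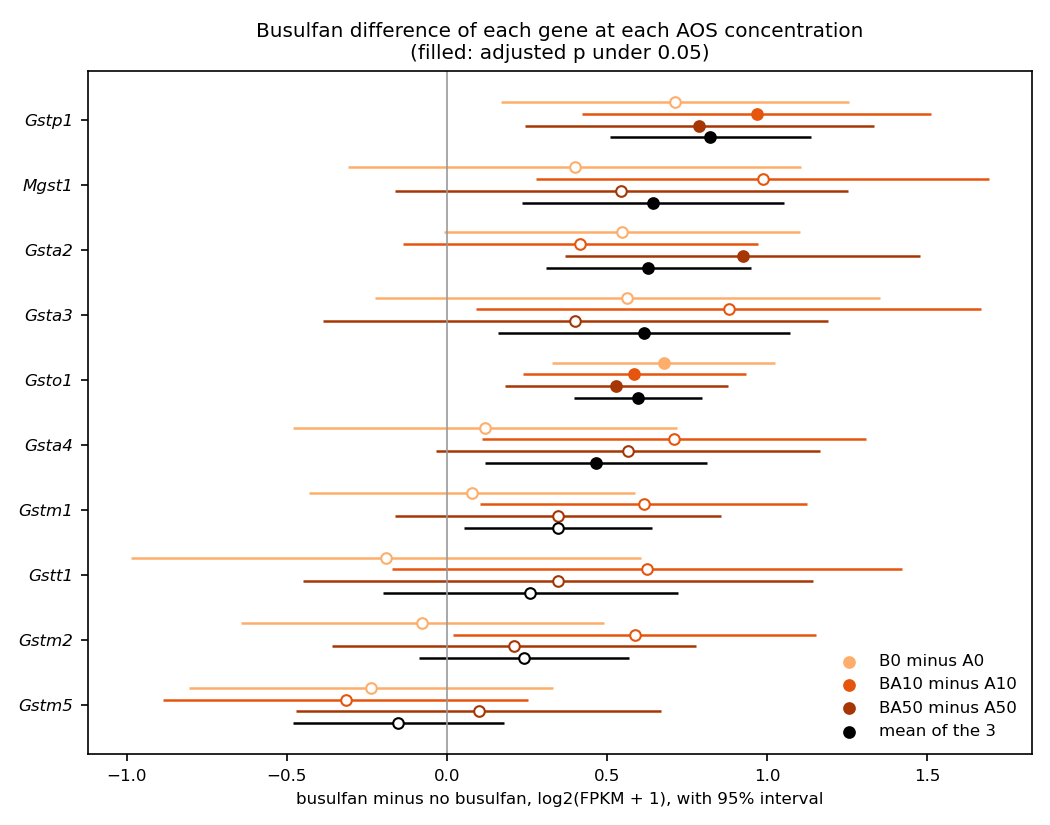
Busulfan minus no busulfan for each of the 10 genes on the log2(FPKM + 1) scale (horizontal axis), at each AOS concentration with 3 samples a group and as the mean of the 3 (black). Points are limma estimates, lines their 95% intervals, and filled points have an adjusted p under 0.05. Gsto1 is filled in all 4, Gstp1 in 3 of 4, and the mu class genes and Gstt1 in none.

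Whether the busulfan difference itself varied with AOS was tested as an interaction. None of the 10 genes passed, at 10 μg/mL (smallest adjusted p = 0.91, limma) or at 50 μg/mL (smallest 0.953), and 0% of all genes passed in either case. At an unadjusted p under 0.05 there were 0 members in each, against 3.97% and 6.28% of all genes. For Gstp1 the interaction was 0.25 at 10 μg/mL (95% interval -0.52 to 1.02) and 0.08 at 50 μg/mL (-0.69 to 0.85). For Gsto1 it was -0.09 (-0.58 to 0.40) and -0.15 (-0.64 to 0.34). These intervals leave room for differences as large as the busulfan effect.

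The second question was whether AOS in the medium moved the family. In testes without busulfan, 9 of the 10 genes had lower estimates in A10 than in A0 and 9 of 10 in A50 than in A0, with medians of -0.49 and -0.41, and all gene medians of -0.06 in both, but no member was called and 0% of all genes were called in either comparison by limma. At an unadjusted p under 0.05 there were 2 members in A10, against 15.2% of all genes, and 1 in A50, against 15.6%. The largest member differences were those of Gsta4 in A10 (-0.69, adjusted p = 0.322) and Gsta2 in A50 (-0.72, adjusted p = 0.255), both from limma. In A10, 3 members did not overlap with A0, where 20.1% of all genes did not, and in A50 the count was 6, against 40.8% of all genes. Both comparisons use the same A0 samples, so their shared direction is counted on a shared control. Sertoli cell markers moved alongside, summing to 3118.5 to 4307 FPKM in A0, 1062 to 2812 in A10 and 2466.5 to 3312 in A50. Setting values relative to these markers shifted the median of all genes to 0.60 in A10 and 0.26 in A50, so signs on that scale say nothing particular to the members.

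Gstm5 went the other way, at 0.49 in A10 (adjusted p = 0.356, limma) and 0.47 in A50 (adjusted p = 0.373), and its A50 samples lay above all A0 samples. In testes with busulfan its level also stood highest at 50 μg/mL, with B0 at 391 to 603 FPKM and BA50 at 715 to 1079 FPKM. That difference of 0.80 ± 0.27 (SE) had an unadjusted p of 0.00884 and an adjusted p of 0.12 (limma). Spermatid markers moved with it, summing to 2891 to 4077 FPKM in B0 and 6026 to 12659 FPKM in BA50, and their part in the difference was not tested.

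Gsto1 and Gstp1, the most clearly raised genes, stood lower at 50 μg/mL AOS than at 0 among busulfan samples. All 3 BA50 samples of Gsto1, 27.5 to 40.1 FPKM, lay below the B0 samples, 43.5 to 51.7 FPKM, a difference of -0.47 ± 0.16 (SE, adjusted p = 0.128, limma). For Gstp1 the BA50 samples, at 548 to 749 FPKM, also lay below those of B0, at 787 to 997 FPKM, with a difference of -0.43 (adjusted p = 0.302, limma). Neither passed. The estimates in A50 against A0 had the same sign, at -0.32 for Gsto1 (adjusted p = 0.34, limma) and -0.50 for Gstp1 (adjusted p = 0.339). Over the 10 genes, BA50 against B0 gave 0 calls where 0.095% of all genes were called, 2 members at an unadjusted p under 0.05 (24.3% of all genes) and 3 without overlap (24.6%). The count over all genes turned on single samples, from 15 to 1115 without the first BA50 sample, when Gsto1 was called, and to 0 without the second. In BA10 against B0 there were also 0 calls (0.0253% of all genes), 0 members at an unadjusted p under 0.05 (5.05%) and 1 without overlap, Gsto1 (11.4%). Fat cell and keratin RNA was highest in B0. Summed adipocyte markers were 196 to 805 FPKM in B0, 67.8 to 138 in BA10 and BA50, and 42.5 to 84.6 without busulfan. Summed keratins were 63.5 to 177 FPKM in B0, 6.03 to 12.3 in BA10 and BA50, and 5.95 to 21.7 without busulfan. Whether B0 held other tissue or other expression in the same tissue was not tested, nor was the part of these markers in the differences above.

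Other steps of the glutathione pathway were read for context, from lists chosen with earlier results known. Of the 17 other transferase genes tested, 4 rose with busulfan over the 3 AOS concentrations (Gsta1, Gstp3, Mgst2, Gstm4) and 3 fell (Gstt3, Gsto2, Gstt2), with a median of 0.13. These counts, and those of the lists that follow, stand beside 13.3% of all genes called higher and 24.8% lower. Glutathione supply rose in 7 of 14 genes and fell in 2. Slc7a11, the cystine carrier, rose by 0.96 (limma adjusted p = 0.000197), Gclm, the regulatory subunit of the rate-limiting enzyme of glutathione synthesis, by 0.51 (0.0054), and Glrx, a glutaredoxin, by 0.50 (0.015). Ggct, which breaks down gamma-glutamyl peptides, fell by 0.50 (limma adjusted p = 0.00317) and Ggt7 by 0.32 (0.0405). No glutathione peroxidase of 6 tested was called by limma, with differences of -0.20 to 0.35.

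Export of conjugates and their trimming gave 4 of 14 genes higher and 1 lower, where 13.3% and 24.8% of all genes were so called. The summed level of this list, which is weighted to its abundant genes, was lower with busulfan, at 192 to 212.25 FPKM against 212.63 to 241 without it. Gene by gene, the log2 change was above 0 in 11 of the 14, with a median of 0.14. The pumps Abcc4 and Abcc1 rose by 0.61 (limma adjusted p = 0.000365) and 0.44 (0.000236), Abcc5 by 0.32 (0.0401), and Dpep3, a testis dipeptidase, fell by 1.15 (8.35e-06). Among NRF2, its regulators and targets other than transferases, 7 of 8 rose, 2 of which, Gclc and Gclm, are also in the supply list. Nqo1, a quinone reductase, rose by 1.15 (limma adjusted p = 1.64e-05), Srxn1, sulfiredoxin, by 1.04 (4.21e-05), and Txnrd1, thioredoxin reductase, by 0.69 (0.000145). The list's median was 0.51, beside 0.53 for the 10 transferases and 0.01 for all genes tested. By single comparison the medians were less alike in B0 against A0, at 0.69 for this list and 0.26 for the transferases. They were 0.55 and 0.62 in BA10 against A10, and 0.47 for both in BA50 against A50.

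**Figure D3:**
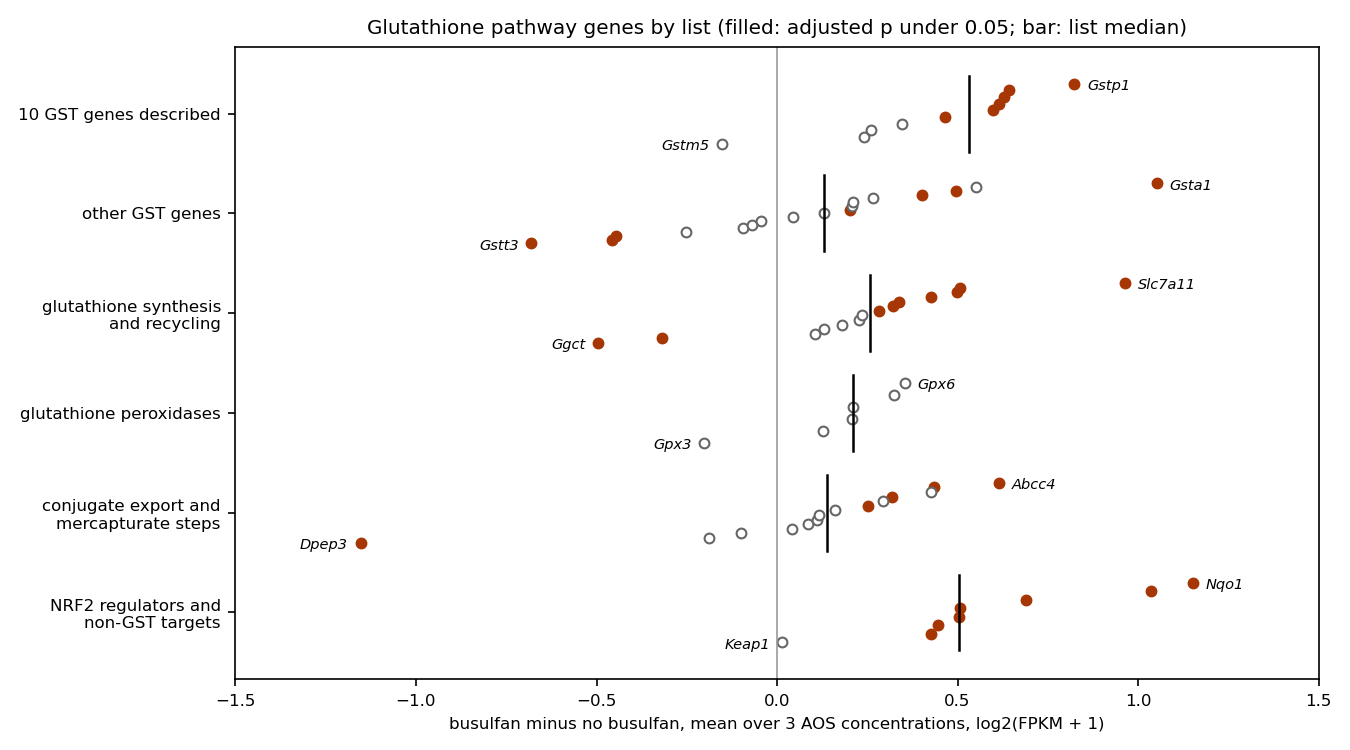
Busulfan minus no busulfan, as the mean over 3 AOS concentrations on the log2(FPKM + 1) scale (horizontal axis), for each gene tested in 6 glutathione lists (rows). Filled points have a limma adjusted p under 0.05, vertical bars are list medians, and the lowest and highest gene of each list are named. The 10 transferases and the NRF2 list have medians near 0.5, and the glutathione peroxidases hold no filled point.

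The members did not vary as a single block among samples. Pearson's r was taken over the 18 samples on the log2(FPKM + 1) scale, as a description of samples that share groups and libraries. It was highest for Gstm1 with Gstm2 (0.957), whose coding bases were 85.9% identical, with 1.1% of the 50-base windows of Gstm2 found in Gstm1. Next came Gsta4 with Gstm1 (0.907), Gstp1 with Gsto1 (0.905) and Gstm1 with Mgst1 (0.905). With group means removed, r of these pairs was 0.96, 0.84, 0.66 and 0.86, in the order given. Gstm5 had a negative r with each of the other 9, from -0.61 with Gsto1 to -0.36 with Gsta2. The 3 genes of the table most like each raised member were Taldo1, Abcc4 and Slc22a23 for Gstp1 (r = 0.943, 0.937 and 0.932), Ccng1, Chmp5 and Zfand2a for Gsto1 (0.97, 0.962 and 0.953), and Crot, Hacd3 and Cpt1a for Mgst1 (0.973, 0.971 and 0.967). For Gsta2 they were Tsku, Nudt12 and Pitpnm1 (0.852, 0.852 and 0.850), for Gsta3 Cd1d1, Itpr2 and Adcy9 (0.929, 0.928 and 0.921), and for Gsta4 Gstm1, Etf1 and G6pdx (0.907, 0.896 and 0.890). These r values include the busulfan difference by which the members were called. With group means removed, r with the first partner named was 0.88 for Gstp1, 0.93 for Gsto1 and 0.98 for Mgst1. It was 0.71 for Gsta2, 0.88 for Gsta3 and 0.84 for Gsta4. Taldo1 and G6pdx are enzymes of the pentose phosphate pathway, Ccng1 is a p53 target, and Crot and Cpt1a act in fatty acid oxidation.

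Cell type markers moved with several members. Gstm2 had an r of 0.921 with the mean of 11 Sertoli cell markers, in which Clu and Cldn11 are the most abundant, Gstm1 an r of 0.868 and Mgst1 an r of 0.784. The third A10 sample, whose Sertoli markers summed to 1062 FPKM against 2466.5 to 5185 in the other 17, carries part of this, since without it the values were 0.865, 0.774 and 0.441. In that sample Gstm1 was at 350.4, Gstm2 at 248 and Mgst1 at 145 FPKM, the lowest of all 18 for each gene. Gsta3 had an r of 0.803 with the mean of 8 Leydig cell markers, among which Insl3 and Cyp11a1 lead, and Gsta2 an r of 0.70. Without the 2 samples farthest from the middle of the marker scale these were 0.638 and 0.526, and within the 9 samples without and the 9 with busulfan they were 0.635 and 0.781 for Gsta3 and 0.602 and 0.429 for Gsta2. Gstm5 had an r of 0.741 with 12 spermatid markers, led by the protamines Prm2 and Prm1, and of -0.81 with macrophage markers such as Lyz2 and Cd68. Within the 9 samples without busulfan and the 9 with it, r of Gstm5 with the spermatid markers was 0.875 and 0.95.

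**Figure D4:**
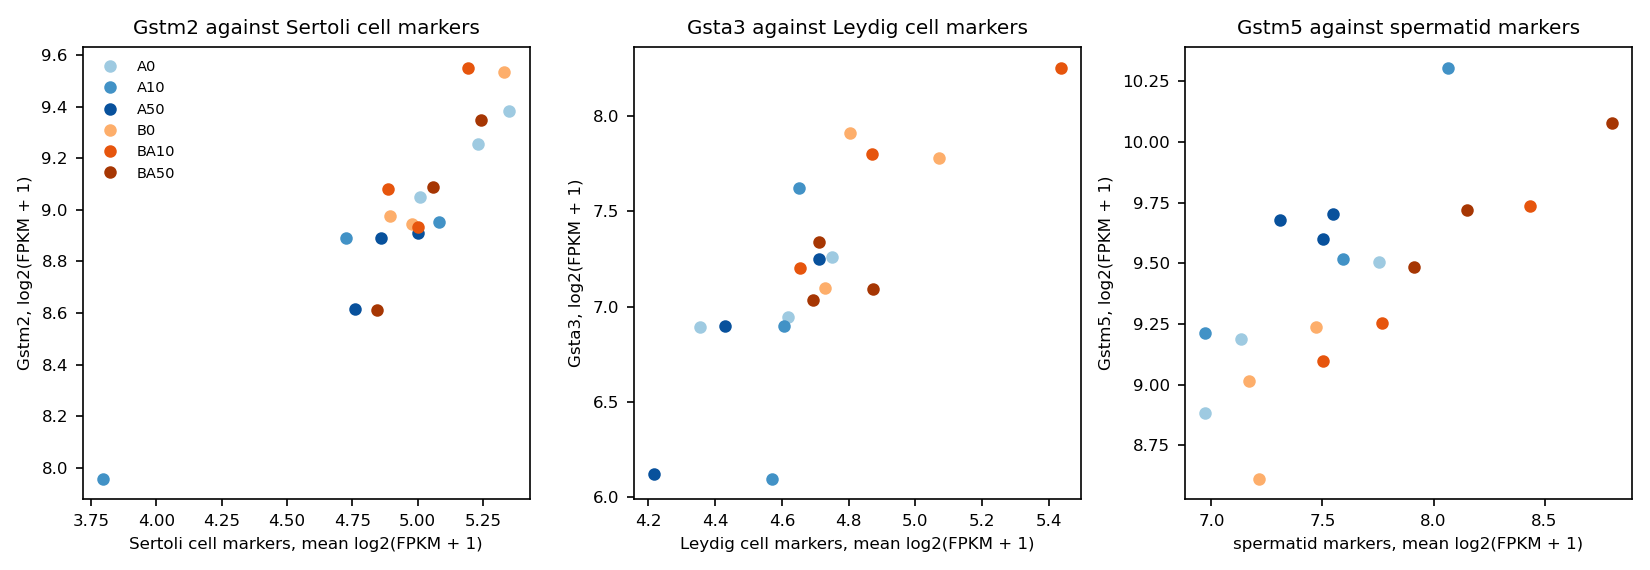
Gstm2, Gsta3 and Gstm5 (vertical axes) against the mean of the Sertoli cell, Leydig cell and spermatid markers (horizontal axes), all as log2(FPKM + 1), with 1 point per sample coloured by group. The A10 point at the lower left of the Sertoli panel is the third A10 sample, and in the spermatid panel the busulfan and non-busulfan samples lie on separate bands that both climb.

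Marker sums also differed with busulfan, and the busulfan differences were set relative to those of the Sertoli and Leydig cells. Leydig markers summed to 731 to 1204 FPKM without busulfan and to 973 to 2333 FPKM with it, and 2 of 8 rose (Star and Nr5a1). Sertoli markers summed to 1062 to 4307 and 2869 to 5185 FPKM, and 1 of 11 rose (Gata4). Other lists had more genes called higher, adipocyte markers 6 of 6 (median 1.09), keratins 3 of 4 (median 0.81) and endothelial markers 3 of 7 (median 0.32, sums of 48.3 to 80.0 without and 37.5 to 112 FPKM with busulfan), and their part in the transferase differences was not tested. By single comparison, adipocyte and keratin genes were called in B0 against A0 alone (medians 2.25 and 2.67). In BA10 against A10 and BA50 against A50, 0 were called. Medians there were 0.53 and 0.46 for adipocyte markers, and -0.04 and -0.31 for keratins. With each sample's Sertoli marker mean subtracted, Gstp1 and Mgst1 stayed called and the count went from 6 to 2, with a median of all genes of -0.17. With the Leydig marker mean subtracted Gstp1 alone stayed called, at 0.50, against a median of all genes that fell by 0.31. Relative to that median the remaining members kept values above it apart from Gstm5, whose value was -0.48. Gsto1 missed the limit in both, at 0.42 (adjusted p = 0.0599) and 0.27 (adjusted p = 0.0816), from limma. With every sample scaled to the same FPKM sum, 4 members stayed called (Gstp1, Mgst1, Gsta2 and Gsto1).

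**Figure D5:**
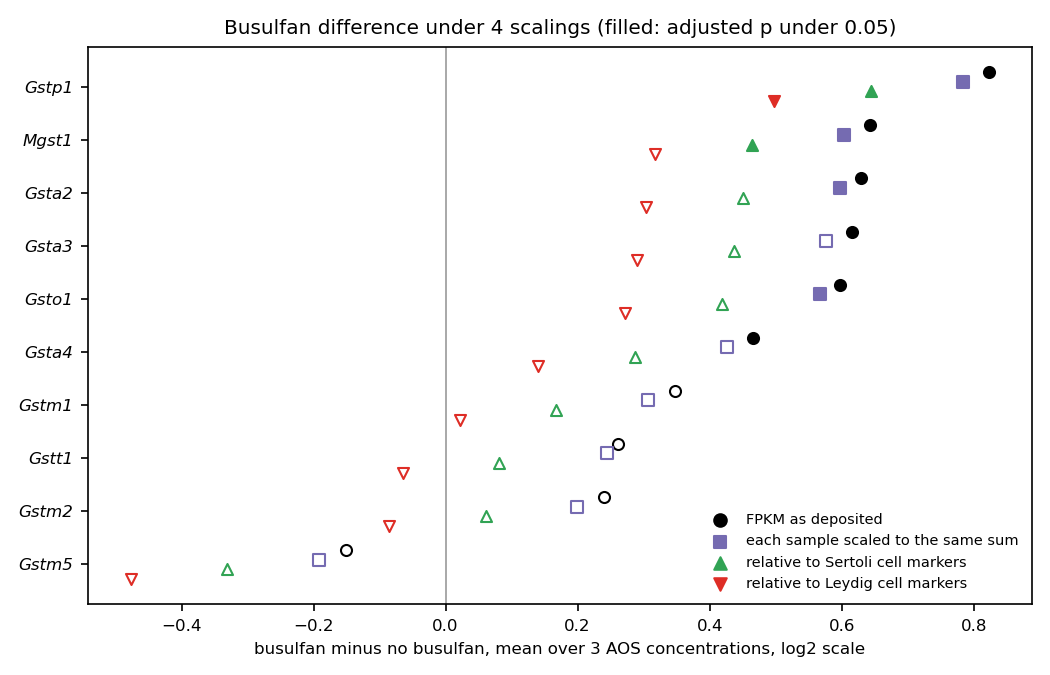
Busulfan minus no busulfan, as the mean over 3 AOS concentrations on the log2 scale (horizontal axis), for the 10 genes under 4 scalings (colour and shape), filled where the limma adjusted p is under 0.05. Gstp1 is filled under all 4, Mgst1 under 3, and Gstm2 and Gstt1 lie below 0 only relative to the Leydig markers.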

How the data were processed

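RNA-seq values of 18 cultured testis samples, 3 in each of 6 groups, were analyzed. The authors deposited 1 table of FPKM per gene and sample. Their supplementary methods name poly(A) libraries, SOAPaligner and RPKM, whereas the submitters' processing notes name HISAT, Bowtie2, RSEM and GRCm38.p5, so which of these made the table, and how reads shared by copies were divided, is unclear, and strand is not given in the sources used here. Read numbers are unknown, so precision was judged from replicates. FPKM summed to 463970 to 511274 per sample. Replicates of a group had r of 0.929 to 0.988 across genes. The cultures were repeated, but the samples are not tied to animals, so p-values measure the spread between samples.

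Genes that reached 1 FPKM in 3 samples or more were tested on log2(FPKM + 1) by limma 3.58.1 in R 4.3.3, with lmFit, trended eBayes and 1 coefficient per group, adjusted over all 15790 genes. The busulfan difference was the mean of B0 minus A0, BA10 minus A10 and BA50 minus A50. Exact two-sided permutation tests exchanged samples within AOS concentrations. The fit was tested on simulated data. The members and lists were chosen with earlier results of these data known. Named genes were the members, up to 3 rises and 3 falls per glutathione list, close copies, the 2 most abundant markers of the cell types described and the 3 genes most like each raised member. The lowest value of a list and Gm10639, Gm3776, Star, Nr5a1, Gata4, Gclc, Mgst2, Gstm4 and Gstt2 were named to complete counts. Copies were judged by coding bases and 50-base transcript windows, as no protein table was used here. MARS was not run, since it needs counts.

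Alternatives were a replicate block, fits restricted to the groups under comparison, 0.1 as pseudocount, omission of the filter, a mean of at least 5 FPKM, quantile normalization, equal sums per sample, subtraction of marker means, eBayes without trend or robust, the study's limits, an additive model and each sample left out. Same-numbered samples of B0 and BA50 deviated together (r = 0.562, 0.422 and 0.138). Those of A50 and BA50 did so weakly (r = 0.037, 0.204 and 0.13), and the other group pairs compared had negative values among theirs. Leaving out A0 and B0, and a block on B0 and BA50 alone, were added after seeing the data. Python 3.11.15, pandas 2.3.3, NumPy 2.4.6, Biopython 1.88 and matplotlib 3.10.9 were used.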

Additional observations from a re-analysis of the deposited data

Results flagged for a closer look

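Values of the 10 genes were screened for single samples far from the rest among the 9 samples without and the 9 with busulfan, which combine 3 groups each. The third A10 sample stood apart for Mgst1, at 145 FPKM against 271 to 468 in the other 8 samples without busulfan, with a gap of 0.531 of the whole range on the log2 scale. The same sample stood apart for Gstt1, at 2.30 FPKM against 5.45 to 11.2, with a gap of 0.511. Chance alone marks about 1 in 20 such sets, and both marks fall on 1 sample, which also had the lowest Sertoli marker sum. Without it the busulfan difference over the 3 AOS concentrations stayed called for Mgst1 and stayed uncalled for Gstt1.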

How the results depend on the processing

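The count of 6 members called for busulfan over the 3 AOS concentrations was 6 under 9 other fits, 4 with equal sums per sample, 2 relative to Sertoli markers, 1 relative to Leydig markers and 0 at the stricter limits, whose construction asks for a doubling. Leaving out single samples gave 4 to 7. Equal counts need not hold the same members, since Gstm1 reached an adjusted p as low as 0.039 in other fits and 0.0281 with single samples left out (limma). With the replicate block the count was 6, with Gsta3 lost (adjusted p = 0.0508, limma) and Gstm1 gained (0.0454), and the block made no other change to the members called here. The pairing it assumes was clearest by correlation for B0 and BA50, where a block on those groups alone gave 0 members. It was weak for A50 and BA50, for which no such block was run. In the single comparisons B0 minus A0 (1 member), BA10 minus A10 (2) and BA50 minus A50 (3), counts were 0 relative to either marker list and at the stricter limits; with only the groups compared they were 2, 0 and 1, and with equal sums BA50 minus A50 gave 1. Leaving out single samples gave 0 to 2, 0 to 5 and 0 to 3, and 0 to 1 (Gsto1, without the first BA50 sample) for BA50 minus B0. AOS comparisons and interactions otherwise kept 0 members called. Signs turned, among uncalled values, relative to Leydig markers for Gsta4 (-0.17) and Gstm1 (-0.21) in B0 minus A0, Gstm2 (-0.10) and Gstm5 (-0.21) in BA50 minus A50, and Gstm2 (-0.086) and Gstt1 (-0.065) over the 3 concentrations. Relative to Sertoli markers they turned for Gstm2 in B0 minus A0 (0.053), Gsta2 in BA10 minus A10 (-0.075), Gstm5 in BA50 minus A50 (-0.076), Gsto1 in A10 minus A0 (0.50) and A50 minus A0 (0.0028), and the Gstp1 interactions (-0.37 and -0.23). Quantile normalization turned Gstm1 in B0 minus A0 (-0.11) and Gstm5 in BA50 minus A50 (-0.14). With single samples left out, values ran from -0.026 to 0.17 (Gstm1), -0.27 to 0.027 (Gstm2) and -0.45 to 0.0063 (Gstt1) in B0 minus A0, -0.059 to 0.24 for Gstm5 in BA50 minus A50, -0.33 to 0.026 for Gsto1 in A10 minus A0, -0.28 to 0.077 for its interaction at 10 μg/mL and -0.14 to 0.30 for that of Gstp1 at 50 μg/mL. Over all genes, 2097 were called higher and 3921 lower with busulfan, 3658 and 3441 after quantile normalization, 101 and 2975 relative to Sertoli and 77 and 6826 relative to Leydig markers, whose median shifts were -0.17 and -0.31. The causes of these changes were not tested. The unknown read depth leaves the counting error of Gstt1, the lowest member, unknown.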
